A study of Mus musculus with 6 samples.

Results

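Interferon-stimulated genes are the antiviral and immune genes that cells switch on after interferon binds its receptors. The set described here was 50 such genes listed by name as known interferon targets, with earlier results of these data known, and 47 of them were found among the 16727 gene identifiers measured in the livers of F1 male mice. Oas1b, Mx1 and Mx2 were not analysed here. Of the 47 genes, 42 had a mean of at least 1 FPKM (fragment counts scaled to transcript length and to the total of mapped fragments) over all livers and were tested. The other 5, Oas1g, Oas2, Oas3, Gbp5 and Ifit2, were below that mean and their values are given without a test.

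The livers came from 2 groups of 3 WT male F1 mice of the C57BL/6 strain. iAsF1-M mice were sired by males that had drunk water with 250 ppb inorganic arsenic (iAs) for 6 weeks, and conF1-M mice by males on normal water. Mothers and F1 mice of both groups drank normal water throughout, the F1 mice ate normal chow, and the livers were taken in the refed state. Arsenic exposure was therefore that of the father alone, and the comparison addresses how it relates to gene expression in the liver of sons. Which sire and litter a mouse came from is not given in the sources used here, so the 3 livers of a group were treated as independent, and p-values measure the spread between these livers only.

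Type I interferons signal through the receptor IFNAR and the kinases JAK1 and TYK2, which phosphorylate STAT transcription factors. With IRF9, STAT2 takes part in a complex that binds the interferon-stimulated response element (ISRE) in the promoters of antiviral genes. Interferon gamma acts through its own receptor and on promoters with the gamma-activated site (GAS), and it is a strong inducer of the guanylate-binding proteins and the p47 GTPases. In the liver, hepatocytes, Kupffer cells and sinusoidal endothelial cells all respond to interferon, and a low level of many of these genes is present without infection.

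The deposited tables hold FPKM values with no read counts. Steps between the lowest FPKM values gave a rough estimate of 21400000 to 23850000 fragments per liver. At such a depth, 1 fragment on 1 kb of transcript is worth 0.0419 to 0.0467 FPKM. The steps were only partly regular. Per liver, 49.3% to 61.7% of the genes used came out near whole fragment numbers (tolerance 0.15), where 30% would by chance. The depth is therefore approximate, and read counts were not recovered. Hepatocyte markers were at summed levels of 46180 to 62272 FPKM in iAsF1-M livers and 54144 to 59027 FPKM in conF1-M livers. Alb was the largest part of these sums, which hide differences in single markers. In iAsF1-M liver 2, Tat had 1739.64 FPKM, against 343.61 to 488.28 FPKM in the other livers. Cps1 had 1048.49 FPKM there, against 397.31 to 475.76 FPKM. Over all 9695 genes tested by limma, 6 (0.0619%) passed an adjusted p of 0.05 and none of them was in the set. The iAsF1-M livers lay far apart from each other. Mean Euclidean distances within this group, over all genes tested on the log2 scale, were 32.01, 33.57 and 34.98 for livers 1 to 3. Those within conF1-M were 22.7 to 24.45. Distances of iAsF1-M livers 1 to 3 to the conF1-M livers were 32.39, 36.59 and 28.05, so only liver 3 was nearer to the other group. Values without iAsF1-M liver 3 are given where a call changes, which does not make it the single outlying liver.

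Promoter windows were searched for the ISRE and the GAS. RefSeq (GRCm38.p6) gave a window of 300 bases, 250 before the transcript start and 50 after it, for 35 of the 47 genes. In 27 of the 35, the bases just after a RefSeq start occurred in a GENCODE transcript of the gene. Distances are from the RefSeq start and depend on that annotation. Windows were not used for Oas2, Usp18, Gbp4, Gbp6, Ifi27, Ifi27l2a, Ifi27l2b, Iigp1, Parp14, Rtp4, Zbp1 and Dhx58. The ISRE was searched as GAAANNGAAA and the GAS as TTCNNNGAA, on both strands, and matches of the pair overlapped in 2 of the windows of the set. An ISRE was present in 21 of 35 genes of the set (60%) and in 3.99% of the 27025 genes with a window. A GAS was present in 13 of 35 (37.1%) and in 9.55% of all genes.

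The stretches around the ISRE matches are shown for 8 genes, 5 with higher levels in every iAsF1-M liver than in any conF1-M liver (Oas1a, Oas1g, Gbp3, Gbp7 and Rsad2), 1 with lower levels (Stat2), and 2 classical ISRE genes whose groups overlapped (Isg15 and Ifit1). Capitals mark the ISRE, which reads as TTTC repeats where it lies on the opposite strand to the gene. Each stretch ends upstream of the annotated exons.
Oas1a (chr5:120907526-120907570, minus strand): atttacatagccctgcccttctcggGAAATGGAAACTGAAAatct
Oas1g (chr5:120887614-120887656, minus strand): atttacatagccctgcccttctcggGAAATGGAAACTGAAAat
Gbp3 (chr3:142559974-142560025, plus strand): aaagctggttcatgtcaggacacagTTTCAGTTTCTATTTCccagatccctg
Gbp7 (chr3:142530258-142530317, plus strand): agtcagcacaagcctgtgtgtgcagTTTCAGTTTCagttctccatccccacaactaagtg
Rsad2 (chr12:26456538-26456597, minus strand): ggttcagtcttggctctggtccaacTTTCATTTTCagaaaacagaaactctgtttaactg
Stat2 (chr10:128270251-128270310, plus strand): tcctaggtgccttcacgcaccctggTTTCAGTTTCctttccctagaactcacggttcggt
Isg15 (chr4:156200850-156200921, minus strand): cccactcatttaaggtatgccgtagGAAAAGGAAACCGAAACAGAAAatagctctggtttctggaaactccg
Ifit1 (chr19:34640760-34640838, plus strand): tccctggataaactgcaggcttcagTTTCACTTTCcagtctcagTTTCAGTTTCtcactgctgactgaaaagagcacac

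The printed Oas1a and Oas1g stretches, from neighbouring genes, held the same pair of overlapping ISRE matches. Isg15 had 3 overlapping matches, and Ifit1 had 2 separate ones. In Stat2 the match lay 222 bases before the start, farther upstream than in the other genes shown. Among the genes with a window, an ISRE was found in 6 of 9 whose iAsF1-M livers were all higher, in 1 of 2 whose iAsF1-M livers were all lower and in 14 of 24 whose groups overlapped. The GAS counts were 2 of 9, 0 of 2 and 11 of 24 in the same order. These are descriptions of letters in a window, and binding was not measured.

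**Figure D1:**
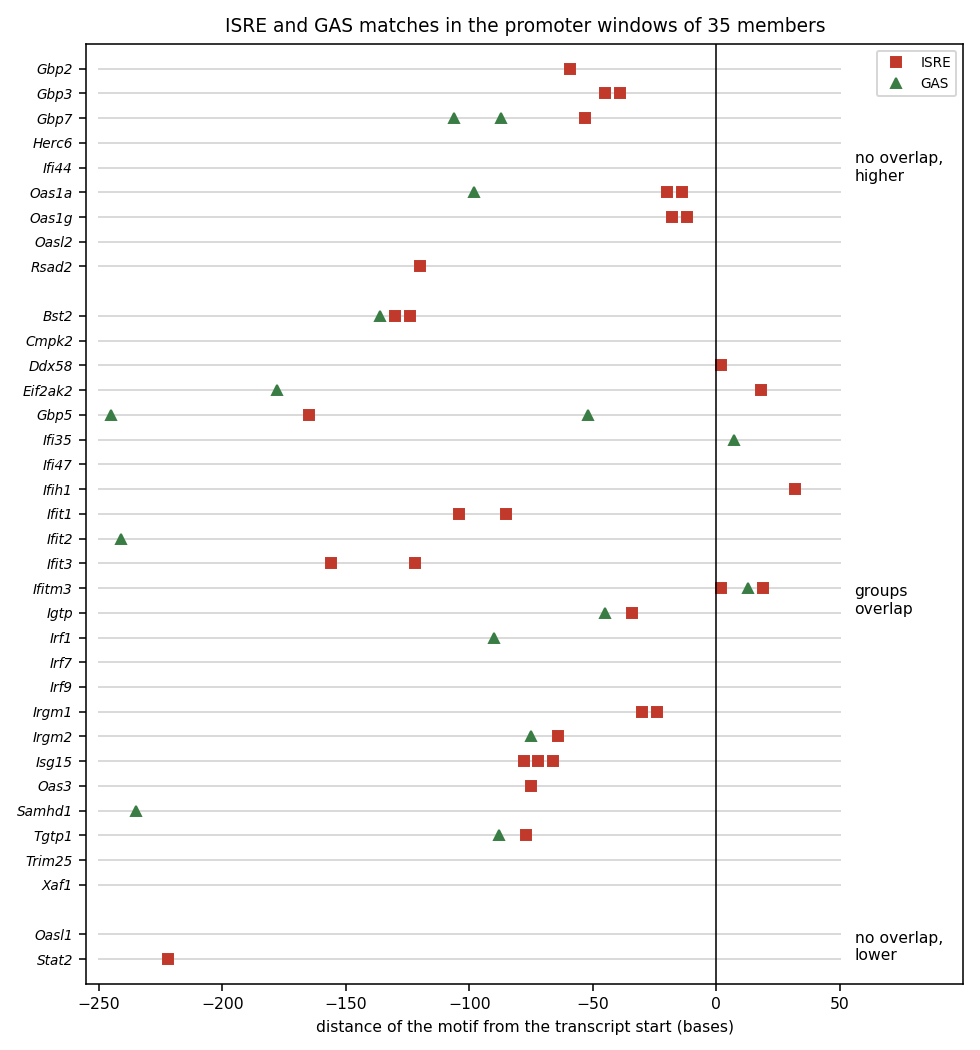
ISRE (squares) and GAS (triangles) matches in the RefSeq promoter window of 35 interferon-stimulated genes, by distance in bases from the transcript start (0). Genes are grouped by whether every iAsF1-M liver was higher than every conF1-M liver, the groups overlapped, or every iAsF1-M liver was lower. ISRE matches occur in 6 of 9, 14 of 24 and 1 of 2 genes of these groups.

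No gene of the set passed the test, while most had a higher mean in iAsF1-M livers. Of the 42 tested genes, 35 had a log2 fold change above 0, against 30.4% of all genes tested. Their median log2 fold change was 0.18, against -0.07 over all genes, with a range of -0.33 (Irf1) to 0.74 (Ifi27l2b). All fold changes are iAsF1-M over conF1-M on the scale of log2(FPKM + 1), which understates the change of genes near 1 FPKM. In 14 of the 42 genes every iAsF1-M liver was above every conF1-M liver, against 2.37% of all genes tested. In 2, Stat2 and Oasl1, every iAsF1-M liver was below, against 11.8%. Each of these 16 genes also had an unadjusted limma p under 0.05, a count of 14 higher and 2 lower, against 1.42% and 6.75% of all genes tested in these directions.

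The smallest adjusted limma p in the set was 0.28, for Oas1a, so no single gene could be called at this number of livers. Without iAsF1-M liver 3, Usp18 and Gbp3 passed (limma, adjusted p = 0.049 and 0.048). Their adjusted p lay between 0.049 and 0.91 and between 0.048 and 0.95 over the alternatives, and 73 genes passed in all without that liver. The median of the set was 0.08 without iAsF1-M liver 1 and 0.28 without iAsF1-M liver 2. The lower values of all genes depended on the scaling. At an unadjusted limma p under 0.05, 138 genes were higher and 654 lower as deposited, and 333 were higher and 350 lower after quantile normalization, where 15 genes of the set were higher and 2 lower with a median of 0.25, against 0.00 (-0.0044) for all genes. In bulk liver RNA, a larger number of cells of a type and more RNA per cell cannot be told apart.

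**Figure D2:**
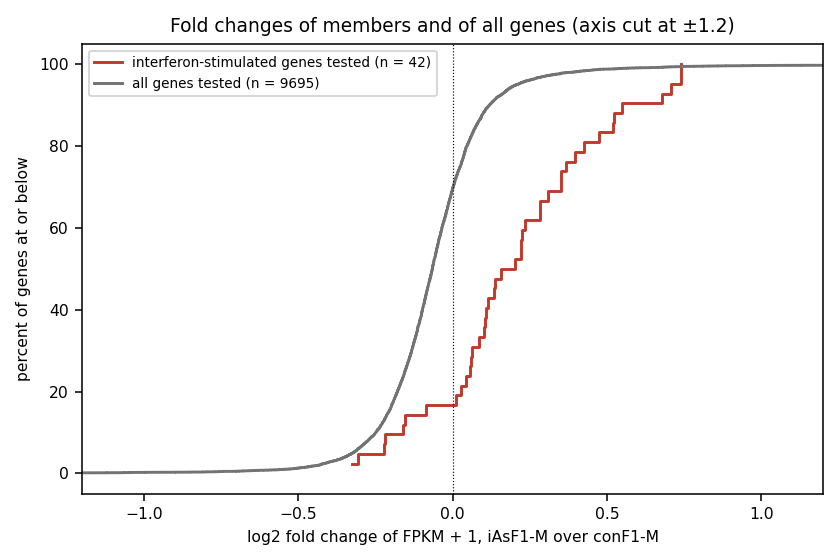
Cumulative percent of genes (y axis) at or below a given log2 fold change of FPKM + 1, iAsF1-M over conF1-M (x axis), for the 42 tested interferon-stimulated genes (red) and all 9695 genes tested (grey). The curve of the set runs to the right of that of all genes, with medians of 0.18 and -0.07.

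**Figure D3:**
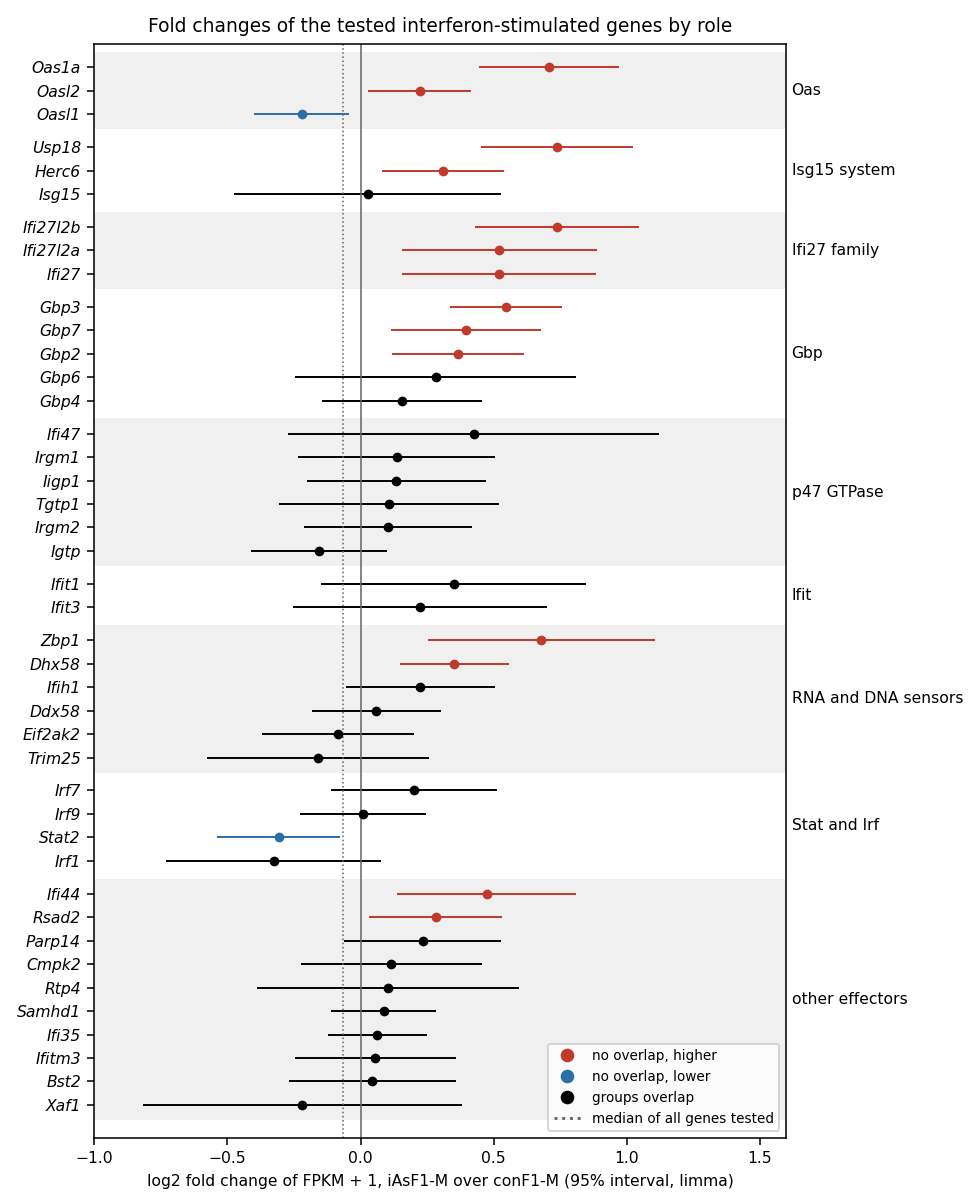
Log2 fold change of FPKM + 1 (x axis, iAsF1-M over conF1-M) of each of the 42 tested genes by role, with its 95% interval from limma. Red marks the 14 genes whose iAsF1-M livers were all higher, blue the 2 whose iAsF1-M livers were all lower, and the dotted line the median of all genes tested (-0.07).

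The 2′-5′-oligoadenylate synthetases sense double-stranded RNA and make the oligoadenylates that activate RNase L. Oas1a, a member of the Oas cluster on chromosome 5 (chr5:120896256-120907521), had 3.33, 2.65 and 3.09 FPKM in the iAsF1-M livers, against 1.78, 1.36 and 1.26 FPKM in the conF1-M livers. The lowest iAsF1-M liver was well above the highest conF1-M liver. The group means were 3.02 ± 0.345 and 1.47 ± 0.276 FPKM (SD, n = 3 each), a ratio of 2.06, with a log2 fold change of 0.71 (SE 0.11; limma, unadjusted p = 2.92e-04, adjusted p = 0.28). Its neighbour Oas1g, below the level tested, had 0.63, 0.41 and 0.55 FPKM in iAsF1-M livers and 0.35, 0.16 and 0.27 FPKM in conF1-M livers. These groups also did not overlap, but 57.6% of the 50-base windows of Oas1a transcripts occur in Oas1g, so fragments could be split between them by the authors' counting and the pair is not independent.

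The Oas-like genes went opposite ways. Oasl2, which keeps enzyme activity in the mouse, had 2.32, 2.09 and 2.07 FPKM in iAsF1-M livers, against 1.65, 1.68 and 1.79 FPKM in conF1-M livers. Oasl1, which lacks enzyme activity and restrains Irf7 translation in the mouse, had 5.16, 4.93 and 4.98 FPKM in iAsF1-M livers, against 6.10, 6.22 and 5.75 FPKM in conF1-M livers. Neither pair of groups overlapped. The log2 fold changes were 0.22 (SE 0.08) for Oasl2 and -0.22 (SE 0.08) for Oasl1, and neither gene passed (limma, adjusted p = 0.593 and 0.588). Oas2 and Oas3 averaged 0.82 and 0.34 FPKM in iAsF1-M livers and 0.61 and 0.287 FPKM in conF1-M livers, with overlapping groups.

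ISG15 is a ubiquitin-like protein that is joined to other proteins after interferon, Herc6 is the main mouse ligase for this step, and USP18 removes ISG15 and also blocks signalling at the type I receptor. Usp18 and Herc6 were higher in every iAsF1-M liver, while Isg15 itself was not separated between groups. Usp18 (chr6:121245906-121270917) had 8.79, 8.26 and 7.37 FPKM in iAsF1-M livers, against 4.97, 3.63 and 4.90 FPKM in conF1-M livers. Means were 8.14 ± 0.718 and 4.5 ± 0.754 FPKM (SD, n = 3 each), with a log2 fold change of 0.74 (SE 0.12; limma, unadjusted p = 3.62e-04, adjusted p = 0.295). The lowest iAsF1-M liver exceeded the highest conF1-M liver by more than either SD.

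Herc6 showed a smaller gap, at 3.28, 2.50 and 3.00 FPKM in iAsF1-M livers and 2.25, 2.08 and 2.14 FPKM in conF1-M livers. Its log2 fold change was 0.31 (SE 0.10; limma, adjusted p = 0.584), and 12.5% of its 50-base windows are shared with other annotated genes. Isg15 had 9.18, 5.18 and 9.69 FPKM in iAsF1-M livers, against 7.33, 6.53 and 9.14 FPKM in conF1-M livers. iAsF1-M liver 2 was the lowest of all and liver 3 the highest, so the groups overlapped fully, with a log2 fold change of 0.03 (95% interval -0.47 to 0.53) whose sign depended on the livers included.

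The Ifi27 family encodes small hydrophobic proteins of mitochondria and the nuclear envelope, and its 3 genes lie side by side on chromosome 12 (103434211 to 103457223). All of them were higher in every iAsF1-M liver. Ifi27, the most abundant, had 67.23, 52.50 and 60.29 FPKM in iAsF1-M livers, against 50.04, 33.62 and 41.94 FPKM in conF1-M livers. Ifi27l2a had 5.25, 4.18 and 3.37 FPKM in iAsF1-M livers and 3.30, 2.39 and 2.28 FPKM in conF1-M livers. In both genes the lowest iAsF1-M liver was only slightly above the highest conF1-M liver. Ifi27l2b had a wider gap, with 4.58, 3.23 and 4.55 FPKM in iAsF1-M livers, against 2.37, 1.92 and 1.86 FPKM in conF1-M livers. The log2 fold changes were 0.52, 0.52 and 0.74 for Ifi27, Ifi27l2a and Ifi27l2b (SE 0.16, 0.16 and 0.13; limma, adjusted p = 0.579, 0.579 and 0.332). The median of 0.52 was the highest of the 9 role groups.

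Guanylate-binding proteins are large GTPases that coat and disrupt vacuoles holding pathogens. All 5 tested Gbp genes of the set had a log2 fold change above 0, with a median of 0.37. In 3 of them, all from the Gbp cluster on chromosome 3, the groups did not overlap. The family was not uniform: outside the set, Gbp2b of the same cluster had -0.36 and Gbp9 -0.06. Gbp8 had 0.05 and Gbp10 0.25, and the groups of each overlapped. Gbp3 (chr3:142560026-142573209) had 3.31, 3.06 and 2.73 FPKM in iAsF1-M livers, against 1.88, 1.69 and 1.70 FPKM in conF1-M livers. The means were 3.03 ± 0.291 and 1.76 ± 0.107 FPKM (SD, n = 3 each), with a log2 fold change of 0.55 (SE 0.09; limma, unadjusted p = 3.65e-04, adjusted p = 0.295). Spread within each group was small beside this difference.

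Gbp2 had 1.89, 2.44 and 1.74 FPKM in iAsF1-M livers and 1.40, 1.34 and 1.26 FPKM in conF1-M livers. Gbp7 had 4.52, 3.78 and 4.14 FPKM in iAsF1-M livers and 2.32, 3.36 and 3.10 FPKM in conF1-M livers. Gbp2 was the single gene of the set with its highest value in iAsF1-M liver 2. Their log2 fold changes were 0.37 (SE 0.11) and 0.40 (SE 0.12), with limma adjusted p of 0.575 and 0.579. Gbp4 and Gbp6, from the cluster on chromosome 5, had overlapping groups and log2 fold changes of 0.16 and 0.28. Gbp5 averaged 0.423 FPKM in iAsF1-M livers and 0.337 FPKM in conF1-M livers.

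The p47 GTPases (immunity-related GTPases) act on the same vacuoles and are mostly driven by interferon gamma. Of the 6 tested, 5 had a log2 fold change above 0, the median was 0.12, and none had groups that did not overlap. Iigp1, the most abundant, had 174.49, 117.70 and 153.92 FPKM in iAsF1-M livers, against 132.08, 132.32 and 136.31 FPKM in conF1-M livers. The conF1-M livers were nearly equal and the iAsF1-M livers lay on both sides of them, with a log2 fold change of 0.14 (95% interval -0.20 to 0.47). Ifi47 had the highest fold change of the group (0.43), which came from 15.11 FPKM in iAsF1-M liver 1. Its other iAsF1-M livers had 6.42 and 6.27 FPKM, and the conF1-M livers 5.83, 7.60 and 5.11 FPKM. Igtp was the one below 0 (-0.16), and 81.2% of the windows of Tgtp1 are shared, chiefly with Tgtp2.

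Ifit proteins bind viral RNA that lacks the cap structure of the host. Ifit1 had 8.82, 4.84 and 9.89 FPKM in iAsF1-M livers, against 5.87, 5.51 and 5.75 FPKM in conF1-M livers. Ifit3, the more abundant by mean, had 7.25, 6.06 and 11.35 FPKM in iAsF1-M livers and 6.97, 5.58 and 7.63 FPKM in conF1-M livers. In both, iAsF1-M liver 3 was the highest and liver 2 fell among or below the conF1-M livers. The log2 fold changes were 0.35 and 0.22 with limma adjusted p of 0.631 and 0.745, and that of Ifit3 was -0.01 without iAsF1-M liver 3. Ifit3 shares 51.2% of its windows with other genes, mainly Ifit3b. Ifit2 averaged 0.823 FPKM in iAsF1-M livers and 0.797 FPKM in conF1-M livers.

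Among sensors of foreign nucleic acid, Zbp1 and Dhx58 were higher in every iAsF1-M liver. Zbp1, which senses left-handed double helices and can trigger necroptosis, had 12.87, 9.41 and 7.76 FPKM in iAsF1-M livers, against 4.63, 6.34 and 6.45 FPKM in conF1-M livers. Dhx58 (LGP2), a regulator of the RNA helicase sensors, had 3.81, 3.82 and 4.09 FPKM in iAsF1-M livers, against 2.71, 2.67 and 3.17 FPKM in conF1-M livers. Zbp1 was spread widely among iAsF1-M livers and Dhx58 narrowly. Their log2 fold changes were 0.68 (SE 0.18) and 0.35 (SE 0.09), each with a limma adjusted p of 0.564. The helicases Ifih1 (MDA5) and Ddx58 (RIG-I) had log2 fold changes of 0.22 and 0.06 with overlapping groups.

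Eif2ak2, the kinase PKR that halts translation, had a log2 fold change of -0.09. Trim25, the ubiquitin ligase that acts with RIG-I and the most abundant of these sensors by mean, had 14.41, 13.09 and 9.22 FPKM in iAsF1-M livers, against 15.97, 14.01 and 11.16 FPKM in conF1-M livers. In both groups liver 3 was the lowest, and the groups overlapped, with a log2 fold change of -0.16 that was 0.02 without iAsF1-M liver 3.

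Of the 4 transcription factors in the set, 2 had a log2 fold change above 0 and 2 below. Stat2 (chr10:128270559-128292849), the subunit specific to type I and III interferon signalling, had 7.51, 6.03 and 6.82 FPKM in iAsF1-M livers, against 9.28, 8.38 and 8.18 FPKM in conF1-M livers. Every iAsF1-M liver was below every conF1-M liver. The means were 6.79 ± 0.741 and 8.61 ± 0.586 FPKM (SD, n = 3 each), with a log2 fold change of -0.31 (SE 0.10; limma, unadjusted p = 0.0158, adjusted p = 0.584). This is a direction shared with 69.6% of all genes tested, and after quantile, TMM-like or median-ratio scaling the log2 fold change of Stat2 lay between -0.25 and -0.23.

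Irf7, the factor that amplifies type I interferon production and the most abundant of this group, had 22.05, 18.58 and 17.39 FPKM in iAsF1-M livers, against 17.29, 13.97 and 18.91 FPKM in conF1-M livers. The groups overlapped (log2 fold change 0.20). Irf9, the DNA-binding subunit, had a log2 fold change of 0.01 (95% interval -0.23 to 0.25). Irf1, a transcription factor induced by interferon gamma, had the lowest value of the set at -0.33 (95% interval -0.73 to 0.08), and its groups overlapped.

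Of 10 other effectors tested, 9 had a log2 fold change above 0, with a median of 0.09. Ifi44, a gene with antiproliferative activity in human cells, had 2.32, 1.38 and 1.97 FPKM in iAsF1-M livers, against 1.33, 0.88 and 1.00 FPKM in conF1-M livers. Rsad2 (viperin), which makes a chain-terminating nucleotide against viral polymerases, had 3.00, 2.59 and 2.99 FPKM in iAsF1-M livers, against 2.57, 1.86 and 2.12 FPKM in conF1-M livers. In each gene 1 conF1-M liver came within 0.1 FPKM of the lowest iAsF1-M liver. The log2 fold changes were 0.47 (SE 0.14) and 0.28 (SE 0.11), with limma adjusted p of 0.579 and 0.593. Ifitm3, which blocks viral entry at endosomes and was the most abundant gene of the whole set, had 442.96, 358.33 and 444.75 FPKM in iAsF1-M livers, against 354.99, 426.35 and 415.62 FPKM in conF1-M livers. Its groups overlapped, with a log2 fold change of 0.06 (95% interval -0.25 to 0.36). The other 7 (Bst2, Cmpk2, Ifi35, Parp14, Rtp4, Samhd1 and Xaf1) had overlapping groups and log2 fold changes of -0.22 (Xaf1) to 0.23 (Parp14).

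**Figure D4:**
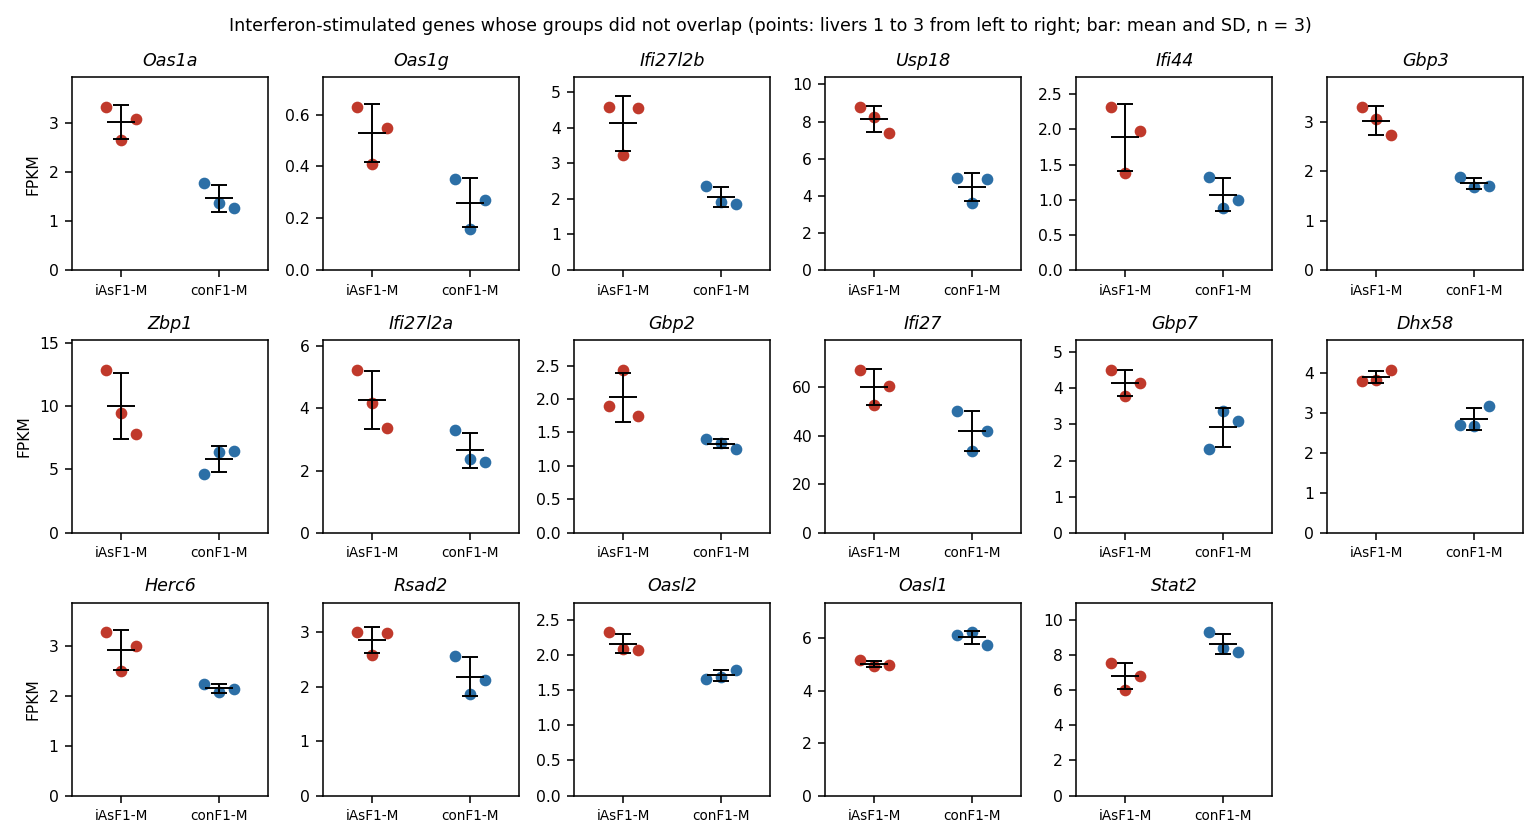
FPKM (y axis, from 0) of the 17 interferon-stimulated genes whose groups did not overlap, in iAsF1-M (red, left) and conF1-M (blue, right) livers 1 to 3, with the mean and SD (n = 3). The first 15 panels, Oas1g (untested) among them, show every iAsF1-M liver above every conF1-M liver, and the last 2, Oasl1 and Stat2, every iAsF1-M liver below.

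The iAsF1-M livers did not contribute equally. Over the 42 tested genes, the mean deviation of log2(FPKM + 1) from the mean of all 6 livers was 0.26, -0.07 and 0.12 in iAsF1-M livers 1, 2 and 3, and -0.06, -0.13 and -0.11 in the conF1-M livers. iAsF1-M liver 1 held the highest value of 24 of the 42 genes, liver 3 that of 10 and liver 2 that of 1, while the conF1-M livers held 4, 2 and 1. The lowest value fell in iAsF1-M liver 2 for 10 genes and in iAsF1-M liver 3 for 2, and in the conF1-M livers for 8, 11 and 11. Over the 28 tested genes outside the 14 that were higher with no overlap, the deviations were 0.20, -0.19 and 0.07 in iAsF1-M livers and 0.00, -0.04 and -0.05 in conF1-M livers. In these genes iAsF1-M liver 2 was the lowest of all 6 livers, which it was not over all 42. The 14 genes left out were picked for high values in every iAsF1-M liver, so leaving them out itself lowers the iAsF1-M means.

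Role groups varied among livers in different ways. In iAsF1-M liver 1 the p47 GTPases deviated by 0.39, against -0.14 and -0.06 in iAsF1-M livers 2 and 3. The Ifit genes deviated by 0.55 in iAsF1-M liver 3 and by -0.30 in liver 2. The means of the Oas, Gbp, Ifi27 and sensor genes were above 0 in all 3 iAsF1-M livers and below 0 in all 3 conF1-M livers. For the sensors the gap was narrow, from 0.03 in iAsF1-M liver 2 to -0.02 in conF1-M liver 2. The Isg15 system was also separated narrowly, from -0.03 in iAsF1-M liver 2 to -0.07 in conF1-M liver 3. The Oas mean includes Oasl1, which went the other way. The median coefficient of variation of the tested genes was 14.9% in iAsF1-M and 13.1% in conF1-M livers, against 11.3% and 8.5% over all genes tested, and 27 of the 42 genes were more variable among iAsF1-M livers.

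**Figure D5:**
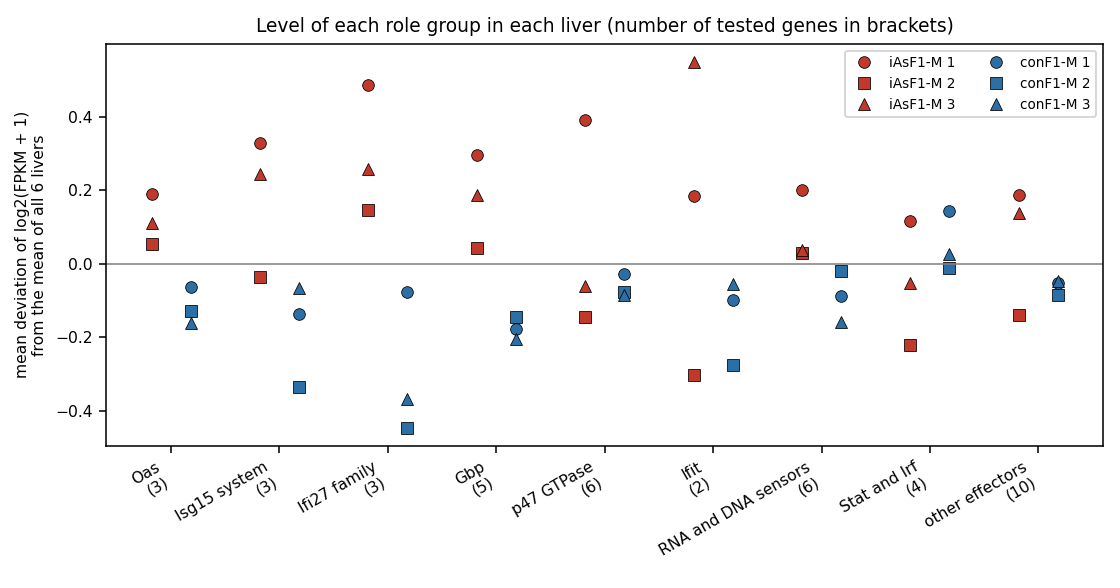
Mean deviation of log2(FPKM + 1) from the mean of all 6 livers (y axis) over the tested genes of each role (x axis, number of genes in brackets), in iAsF1-M livers 1 to 3 (red) and conF1-M livers 1 to 3 (blue). Means of the Oas, Ifi27 and Gbp genes are separated by group, as are, more narrowly, those of the Isg15 system and the sensors. iAsF1-M liver 1 alone stands high in the p47 GTPases and iAsF1-M liver 3 in the Ifit genes (0.55).

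Genes that carry or restrain the interferon signal were counted beside the set. Of 19 interferon ligands listed, 2 were measured, Ifng at 0 to 0.07 FPKM and Ifnk at 0 to 0.11 FPKM, and the others were not analysed here. Of 9 tested receptors and kinases, 0 were higher and 1 was lower at an unadjusted limma p under 0.05, against 1.42% and 6.75% of all genes tested, with a median log2 fold change of -0.02 (-0.07 over all genes). The lower one was Ifngr1, the ligand-binding chain of the interferon gamma receptor, with 4.64, 5.55 and 4.94 FPKM in iAsF1-M livers, against 6.20, 6.37 and 6.16 FPKM in conF1-M livers (log2 fold change -0.26, limma adjusted p = 0.584). Ifnar2, a chain of the type I receptor and the most abundant gene of this list, had a log2 fold change of 0.03, with a sign that depended on the livers included.

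Of 11 tested inhibitors of the pathway, 0 were higher and 2 were lower at an unadjusted limma p under 0.05, against 1.42% and 6.75% of all genes tested, and 9 of the 11 had a log2 fold change below 0, against 69.6%. Pias3, an inhibitor of STAT3, had 1.87, 1.46 and 2.11 FPKM in iAsF1-M livers, against 3.13, 2.89 and 2.34 FPKM in conF1-M livers (log2 fold change -0.43, limma adjusted p = 0.569). Irf2bp1, a corepressor of IRF2, had a log2 fold change of -0.20. Irf2 itself, the most abundant inhibitor and a competitor of IRF1, had a log2 fold change of -0.05 whose sign turned with the scaling. Of 11 tested inducers upstream of interferon, such as the adaptor Mavs, 0 were higher and 0 lower, with a median of 0.00 (-9e-04). The smallest unadjusted p among these was 0.0576, for the kinase Ikbke (log2 fold change 0.33).

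A further list of 65 interferon-stimulated genes outside the set, was also counted, of which 53 were tested. Of these, 36 had a log2 fold change above 0, 7 were higher and 2 lower at an unadjusted limma p under 0.05, and the median was 0.05. Over all genes tested these shares were 30.4% above 0, 1.42% higher and 6.75% lower, with a median of -0.07. In 3 of the 53 (Ddx60, Sp110 and Gbp8) the conF1-M mean was below 1 FPKM, so these passed the filter through the iAsF1-M livers. All 3 are counted among the 36, and Ddx60 also among the 7, so these counts lean upward. Nmi, a partner of STAT proteins, had 10.19, 10.43 and 11.26 FPKM in iAsF1-M livers, against 8.25, 8.55 and 8.75 FPKM in conF1-M livers. Cxcl9, a T-cell chemokine induced by interferon gamma, had 3.38, 4.07 and 2.26 FPKM in iAsF1-M livers, against 2.14, 1.73 and 1.83 FPKM in conF1-M livers. The groups of both did not overlap, with log2 fold changes of 0.29 and 0.53 (limma, adjusted p = 0.564 and 0.579). Without iAsF1-M liver 3, Cxcl9 passed (limma, adjusted p = 0.0489), with an adjusted p of 0.0489 to 0.99 over the alternatives. Apol9a had 65.40, 42.24 and 52.78 FPKM in iAsF1-M livers, against 38.01, 33.00 and 41.35 FPKM in conF1-M livers (log2 fold change 0.49).

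Markers of other cell types were summed in each liver. The 12 Kupffer cell and macrophage markers summed to 105 to 253 FPKM in iAsF1-M livers and 165 to 186 FPKM in conF1-M livers. The highest sum was that of iAsF1-M liver 2 and the lowest that of iAsF1-M liver 3. Of the 12 log2 fold changes, 4 were above 0, against 30.4% of all genes tested. At an unadjusted limma p under 0.05, 1 was lower, against 6.75%. The 11 measured T and NK cell markers were each below 1 FPKM on average and summed to 2.56 to 4.27 FPKM in iAsF1-M livers and 2.57 to 3.45 FPKM in conF1-M livers. Of the 8 dendritic cell markers only Bst2, itself an interferon-stimulated gene, reached 1 FPKM. Neutrophil and monocyte markers summed to 2.06 to 4.29 FPKM in iAsF1-M livers and 3.25 to 5.34 FPKM in conF1-M livers, and Mpo and Elane were listed at 0 in some livers.

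Sinusoidal endothelial markers summed to 64.3 to 76.5 FPKM in iAsF1-M livers and 84.2 to 108 FPKM in conF1-M livers, with 11 of 12 below 0 and 6 lower at an unadjusted limma p under 0.05. All 7 tested stellate cell markers were below 0, and 2 were lower by the same p. Among the 7, Col3a1 averaged 0.92 FPKM in iAsF1-M livers and 1.38 FPKM in conF1-M livers. It thus passed the filter only through the conF1-M livers, and was not among the 2. Over all genes tested, 69.6% were below 0 and 6.75% lower by that p. Both lists were lower where most genes of the set were higher, and the part of these cells in the values of the set was not tested. Of 2 tested B and plasma cell markers, Jchain was higher and Cd79a lower by that p. Jchain averaged 2.01 FPKM in iAsF1-M livers and 0.68 FPKM in conF1-M livers, and Cd79a 0.74 and 1.36 FPKM. Each thus passed the filter only through the group where it was higher, and no direction is read from them. The list summed to 2.77 to 6.12 FPKM in iAsF1-M livers and 3.18 to 4.70 FPKM in conF1-M livers.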

How the data were processed

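Total RNA was extracted from the livers with Trizol, and libraries were made with the Illumina TruSeq kit and sequenced as paired ends. The authors filtered the reads and aligned them to GRCm38 with HISAT2, whose version is not given in the sources used here. The deposited values are FPKM per Ensembl gene and liver. The program and annotation behind them are not given in the sources used here, and without counts no count test could be run. Of 16743 identifiers, 16 that stood on 2 lines were left out, and 16706 received a symbol and position from GENCODE (GRCm38).

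The test took genes averaging 1 FPKM or more over all livers, as log2(FPKM + 1) with limma 3.58.1 (R 4.3.3; lmFit, eBayes with a trend, group only, two-sided), with Benjamini-Hochberg adjustment over all 9695 genes and a threshold of 0.05. The fit was tested on simulated data. Values in every liver were given for the 12 tested genes of the set with the smallest unadjusted p, the most abundant of each role and all whose groups did not overlap, and for up to 4 genes of each pathway list, by smallest p or highest level. The genes of the set and all lists were chosen with earlier results of these data known. Pseudocounts, filters, scalings, variance models, a replicate block and leaving out each liver were tried as alternatives. Precision was limited by 3 livers per group. Promoter windows were from RefSeq (GRCm38.p6), and sequence shared between genes was counted as identical 50-base windows of annotated transcripts. A gene of the pathway lists is not reported here by name.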

Additional observations from a re-analysis of the deposited data

How the results depend on the processing

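None of the 42 tested genes passed under any of the 18 alternatives except when iAsF1-M liver 3 was left out, where 2 did. Leaving out each liver in turn gave 3 to 73 genes past the threshold in all and 0 to 2 genes of the set past it. Of the set, 29 to 35 genes were above 0, with a median log2 fold change of 0.08 to 0.28. At an unadjusted limma p under 0.05, 11 to 19 genes of the set were higher and 0 to 3 lower. Over all genes tested in these fits, 0.9% to 3.6% were higher and 3.22% to 13.32% lower by that p. The 3 lower genes came from the fit without iAsF1-M liver 3, where 13.32% of all genes were lower. Lower by that p were 0 genes of the set without iAsF1-M liver 2 or with median-ratio scaling, 1 (Stat2) with TMM-like scaling or without conF1-M liver 2, and 1 (Xaf1, with Stat2 and Oasl1 no longer under that p) without conF1-M liver 1. With no filter on low values 3 genes passed in all. At a mean of at least 5 FPKM, 23 genes of the set were tested, of which 18 were above 0. By that p, 3 were higher and 2 (Stat2 and Oasl1) lower, against 1.26% and 6.44% of the 5855 genes tested there. The groups did not overlap in 3 higher and 2 lower of these 23 genes. Over all 9695 genes of the main fit these shares were 2.37% and 11.8%, and those over the 5855 genes are not given here. All genes at that p numbered 306 higher and 336 lower after TMM-like scaling, and 351 and 298 after median-ratio scaling.

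The sign of 12 of the 42 tested genes of the set turned when some liver was left out: Bst2, Cmpk2, Ddx58, Ifit3, Ifitm3, Irf9, Irgm1, Irgm2, Isg15, Rtp4, Tgtp1 and Trim25. Irf2, at -0.05, was 0.0244 after quantile normalization, 0.0203 after TMM-like scaling and 0.0307 after median-ratio scaling. With a liver left out, Irf2 lay between -0.14 and 0.02, Isg15 between -0.12 and 0.28, Ifit3 between -0.0086 and 0.39, Trim25 between -0.29 and 0.0156, Ifitm3 between -0.0264 and 0.16, Mavs between -0.0532 and 0.14, and Ifnar2 between -0.0253 and 0.0684. The causes were not tested.

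Livers with the same replicate number did not deviate together (correlations of 0.17, -0.10 and -0.02), so the numbers were not taken as pairs. With the number as a replicate block, 13 genes of the set were higher and 2 lower at an unadjusted limma p under 0.05. These counts stand against 1.95% and 6.11% of all genes tested. Of the set, 0 passed the threshold, and 5 genes passed in all, with 35 of the set above 0 and a median of 0.18. Genes near or below 1 FPKM rest on few fragments, and 9 genes of the set share over 10% of their transcript sequence with others.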
